A study of Mus musculus with 5 samples.

Results

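Lysosome and vacuolar sorting genes were examined for H3K4me3 and STAT3 regions in mouse dendritic cells given diluent or SAHA. Genes were taken by name from the gene column of the 4 deposited region lists against IgG: cathepsins (Cts plus 1 letter), and every symbol starting with Atp6v, Vps, Lamp plus a number, Clcn or Mcoln. The rule found 69 of 17024 listed symbols. It matched names and used no score, tag count or width. A gene could enter only if at least 1 region in these lists was assigned to it, as for every listed symbol. The 69 genes comprised 18 V-ATPase subunits (8 of the membrane sector V0 and 10 of the catalytic sector V1), 10 cathepsins, 5 chloride channels and exchangers, 3 Lamp proteins, 3 mucolipins and 30 Vps genes. Of the Vps genes, 8 encode tethering subunits, 4 retromer subunits, 10 ESCRT proteins, 3 GARP subunits or Vps45, and 4 Vps13 proteins. The last, Vps72, carries the yeast sorting name but encodes a chromatin remodelling subunit.

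The study had 5 chromatin immunoprecipitation sequencing (ChIP-seq) libraries, 1 per group, all from bone marrow derived dendritic cells of C57BL/6 females aged 10 weeks. Marrow was cultured for 7 days in GM-CSF and IL-4, each at 10 ng/mL, and CD11c selection gave 95% purity. SAHA (vorinostat, a histone deacetylase inhibitor, labelled 500 nm) or diluent was then given for 12 hours. Both conditions had an H3K4me3 library and a STAT3 library, and rabbit IgG was used in diluent cells only, so these data hold no IgG library from SAHA-treated cells. With 1 library per group, no difference between conditions has a replicate check, and no p-value is given. In these bulk libraries, a mark carried by fewer cells and a lower level of the mark per cell cannot be told apart.

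The lysosome is an acid organelle in which proteases and other hydrolases break down material from endocytosis, phagocytosis and autophagy. The V-ATPase pumps protons inward, Clcn7 exchanges chloride for protons, mucolipins release calcium, and the retromer, ESCRT, HOPS and CORVET complexes sort cargo and fuse membranes along the way. In dendritic cells, cathepsins trim antigens and the invariant chain before peptides load on MHC class II. Transcription factors of the TFEB family bind a palindrome named CLEAR in the promoters of many of these genes. H3K4me3 marks active promoters, and STAT3 is a transcription factor activated by cytokine receptors, with a palindromic site of its own.

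The promoters of 6 genes are shown because they hold the centre of the CLEAR palindrome, TCACGTGA. The first 5 had a STAT3 region within 5 kb in the SAHA library, and Vps33a, which holds 2 copies, had none. Each runs from 160 bases before the RefSeq start to 24 bases after it, 5′ to 3′ on the gene's strand, from RefSeq on GRCm38.p6. Capitals mark TCACGTGA and, in Clcn7, also a match to the STAT palindrome TTCNNNGAA. The windows are chr17:25133231-25133414 on the plus strand for Clcn7, chr8:3500359-3500542 on the plus strand for Mcoln1, chr7:142387804-142387987 on the minus strand for Ctsd, chr8:105566041-105566224 on the minus strand for Atp6v0d1, chr2:130424160-130424343 on the plus strand for Vps16 and chr5:123572992-123573175 on the minus strand for Vps33a.
Clcn7: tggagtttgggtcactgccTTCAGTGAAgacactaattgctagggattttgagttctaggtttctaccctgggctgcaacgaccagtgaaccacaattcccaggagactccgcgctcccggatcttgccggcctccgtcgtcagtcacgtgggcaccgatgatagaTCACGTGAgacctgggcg
Mcoln1: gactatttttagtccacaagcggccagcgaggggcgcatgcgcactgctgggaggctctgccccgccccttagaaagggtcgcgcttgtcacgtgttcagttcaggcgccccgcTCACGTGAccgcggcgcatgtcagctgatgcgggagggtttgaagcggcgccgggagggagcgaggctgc
Ctsd: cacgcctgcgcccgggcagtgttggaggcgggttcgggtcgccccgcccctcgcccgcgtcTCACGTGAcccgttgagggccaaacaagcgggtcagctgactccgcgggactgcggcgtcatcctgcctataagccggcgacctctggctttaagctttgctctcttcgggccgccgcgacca
Atp6v0d1: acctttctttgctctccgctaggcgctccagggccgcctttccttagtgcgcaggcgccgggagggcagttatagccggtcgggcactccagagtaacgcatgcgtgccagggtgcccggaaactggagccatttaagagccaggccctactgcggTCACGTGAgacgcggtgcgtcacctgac
Vps16: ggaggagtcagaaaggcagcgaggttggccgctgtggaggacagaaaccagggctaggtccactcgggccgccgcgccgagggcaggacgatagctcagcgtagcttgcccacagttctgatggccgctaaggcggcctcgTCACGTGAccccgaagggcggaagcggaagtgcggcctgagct
Vps33a: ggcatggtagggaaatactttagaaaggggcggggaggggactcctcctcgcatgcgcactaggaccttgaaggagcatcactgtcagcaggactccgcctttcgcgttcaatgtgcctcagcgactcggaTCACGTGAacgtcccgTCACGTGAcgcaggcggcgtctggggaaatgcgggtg

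RefSeq promoters, here the 250 bases before to the 50 after a start, were matched by symbol for 51 of the 69 genes. Both strands were covered, since each motif searched is its own reverse complement. TCACGTGA was in the promoters of 9 of the 51 genes (17.6%), against 1.12% of 27025 genes in the promoter table and 2.11% of 9592 genes of the lists that had H3K4me3 in diluent. They were Atp6v0d1, Atp6v0e, Atp6v1a, Clcn7, Ctsd, Mcoln1, Vps16, Vps26a and Vps33a. The whole CLEAR palindrome, which adds a G before it and a C after it, was in Vps16, Vps26a and Vps33a (5.88%, against 0.370% of all genes). CACGTG, the E-box inside both, was in 15 of 51 (29.4%, against 8.09%). CLEAR was defined on lysosomal promoters, so these shares describe the genes and are no independent finding. The STAT motif TTCNNNGAA was in 5 of 51 (9.80%, against 9.55% of all genes), namely Clcn7, Ctsc, Lamp3, Vps37c and Vps53. The form TTCNNNNGAA was in 3 (5.88%, against 8.01% of all genes). Promoter positions are on GRCm38.p6 and the regions below are on mm9, so they are linked by gene name alone.

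The H3K4me3 libraries held 22420200 (diluent) and 21428355 (SAHA) filtered tags, the STAT3 libraries 25013431 (diluent) and 17810183 (SAHA), and the IgG library 18925827. Both H3K4me3 libraries were on 1 flow cell and the STAT3 and IgG libraries on another, per the file headers. All 10 dendritic cell markers on a fixed list, among them Itgax, Flt3 and Zbtb46, had H3K4me3 within 5 kb in both conditions. So did 7 of 7 macrophage and monocyte markers, 3 of 3 neutrophil markers, 2 of 2 erythroid markers, 2 of 3 T cell markers and 1 of 2 NK cell markers. The part of other cells in the results below was not tested.

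Nearly all of the genes carried the promoter mark in both conditions. An H3K4me3 region lay within 5 kb of a listed start for 65 of 69 genes in diluent (94.2%, against 84.2% of all 14117 protein-coding genes scored) and for the same 65 in SAHA (against 85.2%). The region covered the start itself for 64 genes in diluent (92.8%, against 79.5% of all genes). The exception was Mcoln3, a mucolipin, whose region ended 3536 bp from its start. The 4 genes without H3K4me3 in either library were Lamp3, a Lamp protein known from mature dendritic cells, and 3 V-ATPase isoforms of restricted expression, Atp6v0e2, Atp6v1e2 and Atp6v1g3. Promoters of the genes with H3K4me3 held a median of 19.0 CpG sites and 59.5% G and C (58 promoters), those of the 4 genes without it 6.00 sites and 52.0%, and all 32851 promoters 7.00 sites and 52.7%. Only Clcn4-2 had an IgG region within 5 kb.

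The median width of the H3K4me3 region nearest the start was 2768 bp in diluent and 3147 bp in SAHA, against 2449 and 2546 bp over all genes with a region. Regions of 5 kb or more were found at 10 of 65 genes in diluent (15.4%, against 7.14% of all genes) and at 13 in SAHA (20.0%, against 11.2%). The widest in diluent was at Atp6v0c, the proteolipid of the V0 ring, with 11374 bp in diluent and 11480 bp in SAHA. In both libraries it also covered the start of the neighbouring gene Amdhd2, so its width is not that of Atp6v0c alone. At Ctsb, a cysteine protease, the region spanned 10980 and 11811 bp. At Ctsz, another cysteine cathepsin, it spanned 7559 and 7871 bp, and at Atp6v1a, the catalytic subunit of the pump, 6758 and 6963 bp. Ctss, Ctsd, Lamp1, Atp6v1d, Clcn7 and Vps54 were the other genes with 5 kb or more in diluent. The narrowest in diluent were at Mcoln3 (495 bp), at Clcn5, an endosomal exchanger (796 bp), at Ctsf, a cysteine cathepsin (871 bp), at Vps37d of ESCRT-I (1401 bp) and at Vps41 of HOPS (1521 bp).

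Most regions were called wider in the SAHA library. The region nearest the start was wider in SAHA at 55 of 65 genes (84.6%, against 70.5% of 11735 genes). It was at least 1.5 times wider at 3 genes (4.62%, against 5.16%), and at least 1.5 times narrower at none (against 2.97%). Ctsc, the cathepsin that activates granule serine proteases, went from 4896 bp in diluent to 12923 bp in SAHA. In diluent the same stretch held 3 separate regions that covered 5939 bp, so the covered length was 2.18 times larger in SAHA. Its downstream edge lay 3637 bp from the start in diluent and 10952 bp in SAHA. At Ctsd, the main aspartic protease, the region across the start was 5951 bp in diluent and 10017 bp in SAHA, with no other region in that stretch. It extended both upstream (894 and 2303 bp) and downstream (5056 and 7713 bp). Vps39 of HOPS had 2108 and 3655 bp, but 2 diluent regions covered 2844 bp of that stretch, a ratio of 1.29. Ctss, the protease of invariant chain processing, stayed just under 1.5 times, with 6660 and 9668 bp. Each library was called separately, so a width also moves with where a caller joins neighbouring regions.

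**Figure D1:**
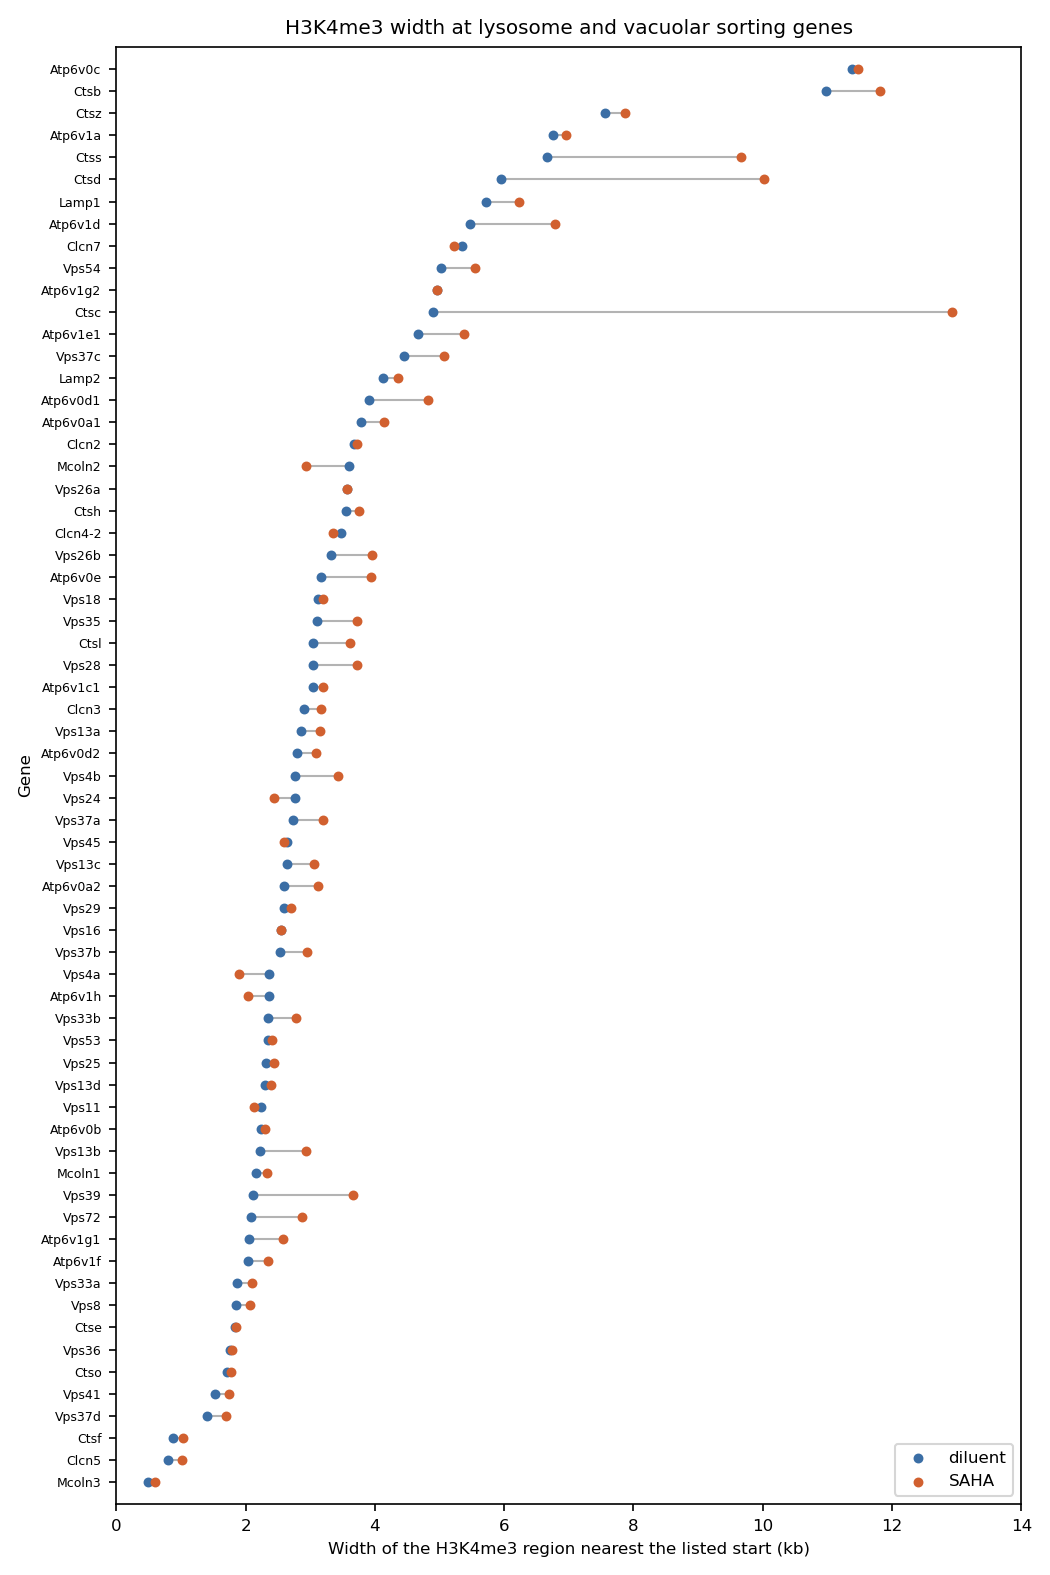
Width of the H3K4me3 region nearest the listed start (kb) for the 65 genes with one, sorted by the diluent width. Blue points are the diluent library, orange points the SAHA library, 1 library each, and grey lines join the values of a gene. Ctsc, Ctsd and Ctss show the long lines, while Atp6v0c and Ctsb were above 10 kb in both libraries.

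Tag counts at H3K4me3 regions differed little between the libraries. A count could be compared for 58 of the 65 genes, at a region that overlapped 1 to 1 between conditions and had a deposited tag count in both. The genes left out were Atp6v0c, Atp6v1d, Ctsb, Ctsc, Ctsd, Ctss and Vps39, so the broadest domains, those of Atp6v0c and Ctsb, have no ratio, nor do those of Ctsc, Ctsd and Ctss. Of all regions of 8 kb or more, 52.8% of 106 in diluent and 39.0% of 313 in SAHA had a count, and the widest with one spanned 9457 and 9395 bp. For the 58 genes, tags ranged from 19 to 3880 in diluent (median 1302) and from 26 to 3617 in SAHA (median 1212). The log2 ratio of SAHA over diluent, scaled to filtered tags, had a median of -0.04 (all 10754 genes with a pair: -0.05) and ran from -0.48 to 1.12. It was below 0 at 35 of 58 genes (60.3%, against 58.4%). One gene was at least 2-fold higher in SAHA (1.72%, against 2.31%) and none was at least 2-fold lower (against 0.465%). The paired region was wider in SAHA at 48 of 58 genes (82.8%, against 72.5%), with a median log2 width ratio of 0.13 (all genes: 0.08). Per kb of called width, 49 of 58 ratios were below 0 (84.5%, against 70.8%), with a median of -0.16 (all genes: -0.13). Some of the paired regions also covered the start of a neighbouring gene, for example Fam113a at Vps16 and Nfkbil1 at Atp6v1g2. Tags and ratios there do not belong to the named gene alone. The intervals given with single ratios are exact conditional binomial 95% intervals and cover counting error only.

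The 5 largest ratios all came from regions under 500 diluent tags. Clcn5, the exchanger of early endosomes, had 42 tags in diluent and 87 in SAHA, a log2 ratio of 1.12 (0.57 to 1.68). The lists gave 1 start for Clcn5 while RefSeq holds 2 distant promoters, so these counts cover 1 of them at most. Vps37d, an ESCRT-I subunit, had 101 and 186 tags, a log2 ratio of 0.95 (0.59 to 1.31). Ctsf had 141 and 200 tags (log2 ratio 0.57, 0.25 to 0.89). These 3 regions had few tags in both libraries and more in SAHA beyond counting error. Mcoln3 had 19 and 26 tags (log2 ratio 0.52, -0.39 to 1.45), an interval that included 0. Ctse, an endosomal aspartic protease, had 375 and 428 tags (log2 ratio 0.26, 0.05 to 0.46). Of the 6 genes under 500 diluent tags, 5 had a ratio above 0 (83.3%, against 65.1% of 2656 such genes). Of the 52 with 500 tags or more, 18 did (34.6%, against 33.8% of 8098).

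**Figure D2:**
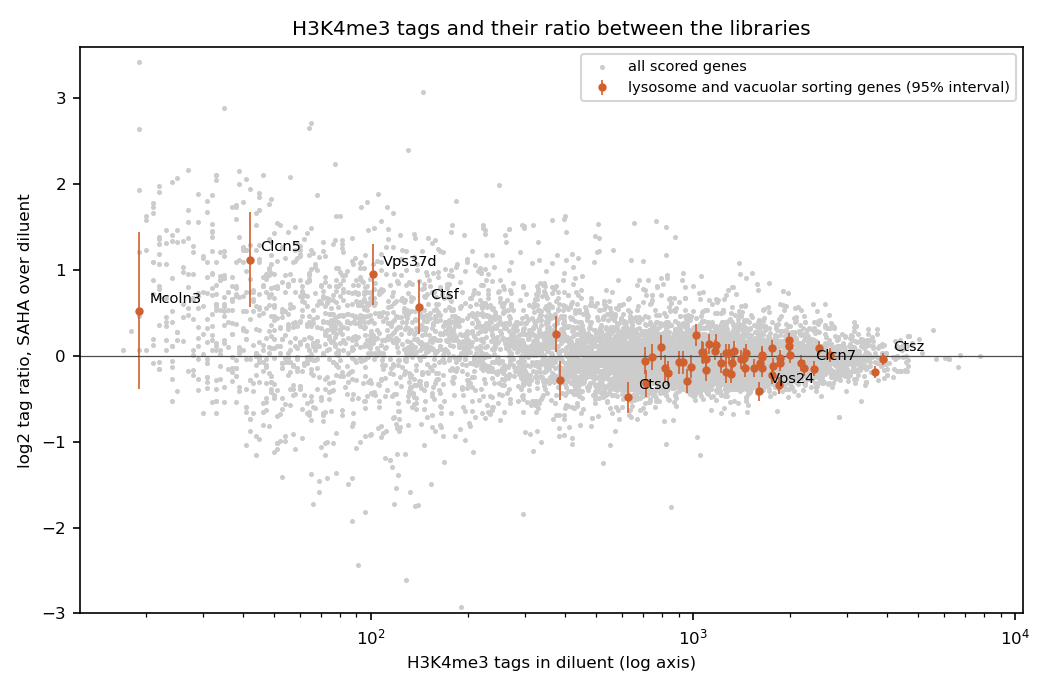
H3K4me3 tags in diluent (log axis) against the log2 tag ratio of SAHA over diluent, scaled to filtered tags, with 1 point per gene. Orange points are the 58 lysosome and vacuolar sorting genes with exact 95% intervals for counting error, and grey points all scored genes with a pair. The genes with ratios of 0.52 and above lie at the low-count left end, and the genes with 500 tags or more lie between -0.48 and 0.24.

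Among the proton pump genes, ratios stayed close to 0. The 6 V0 genes with a ratio ran from -0.28 to 0.09 and the 7 V1 genes from -0.32 to 0.14. Atp6v1h, the regulatory H subunit, was lowest, with 714 tags in diluent and 547 in SAHA (log2 ratio -0.32, -0.48 to -0.16). Atp6v0d2, the d isoform known from osteoclasts and macrophages, had far fewer tags than the widely expressed isoform Atp6v0d1. It had 386 and 303 tags, or 138 and 98.3 tags per kb, while Atp6v0d1 had 2457 and 2504 tags, or 628 and 520 per kb. Atp6v1a had 3676 and 3083 tags (log2 ratio -0.19, -0.26 to -0.12).

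All 10 listed cathepsin genes had H3K4me3 within 5 kb in both conditions, against 84.2% of all scored genes in diluent and 85.2% in SAHA. Of the 10, 6 had a ratio, with a median of 0.12 (all genes with a pair: -0.05). Ratios were above 0 at 4 of the 6, while 58.4% of all genes with a pair were below 0. Of these 4, Ctsf and Ctse had under 500 diluent tags, and the interval of Ctsl included 0. Ctso, a cysteine cathepsin, had the smallest ratio of all 58 genes, with 627 tags in diluent and 429 in SAHA (log2 ratio -0.48, -0.66 to -0.30). Ctsh, an aminopeptidase, had 1985 and 2157 tags (0.19, 0.10 to 0.27). Ctsl, a cysteine protease, had 1171 and 1170 tags (0.06, -0.05 to 0.18). Ctsz had the most tags of the 58 genes, 3880 and 3617 (-0.04, -0.10 to 0.03). Only one library gave a count for Ctss (3216 tags), Ctsd (3151) and Ctsc (2678), in diluent.

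Among channels and membrane proteins, Clcn7 had 2212 tags in diluent and 1922 in SAHA (log2 ratio -0.14, -0.23 to -0.05) over regions of 5355 and 5224 bp. Clcn2, a plasma membrane chloride channel, had 1218 and 1101 tags, and Clcn3, an endosomal exchanger, 1404 and 1308. Clcn4-2, another endosomal exchanger, had 1774 and 1561. Their ratios, from -0.12 to -0.04, lay on the same side of 0 as that of Clcn7, with Clcn5 alone above 0 among the 5. The intervals of Clcn2 (-0.20 to 0.04) and Clcn3 (-0.15 to 0.07) included 0, and 58.4% of all genes with a pair were below 0. Mcoln1, the widely expressed lysosomal calcium channel, had 900 and 817 tags (-0.07, -0.21 to 0.06), and Mcoln2 had 953 and 744 (-0.29, -0.43 to -0.15). Lamp1 and Lamp2, abundant lysosomal membrane glycoproteins, had 2650 and 2552 and 1075 and 1055 tags, with ratios of 0.01 and 0.04.

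In the sorting machinery, all 4 retromer genes had ratios below 0, as did 58.4% of all genes with a pair. Vps26a had 1843 and 1390 tags (log2 ratio -0.34, -0.44 to -0.24), while Vps29, Vps35 and Vps26b had ratios of -0.13, -0.08 and -0.08, with intervals that included 0. Of the 7 tethering genes with a ratio, 6 were below 0, from -0.22 at Vps16 (1750 and 1432 tags) to 0.10 at Vps8 of CORVET (795 and 812 tags). ESCRT genes split evenly, 5 above and 5 below 0. Their lowest was Vps24, an ESCRT-III filament protein listed by RefSeq as Chmp3, with 1604 and 1154 tags (-0.41, -0.52 to -0.30). The 3 GARP and Vps45 genes ran from -0.14 to 0.01 and the 4 Vps13 genes, which encode lipid transfer proteins, from -0.19 to 0.13.

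More of the genes had a STAT3 region near a start in the SAHA library than in the diluent library, as in the lists at large. Within 5 kb, 6 of 69 genes had one in diluent (8.70%, against 6.40% of all scored genes) and 21 in SAHA (30.4%, against 18.3%). Among genes with H3K4me3, the counts were 6 of 65 in diluent (against 6.93%) and 20 of 65 in SAHA (against 19.7%). The SAHA list is the longer, with 8552 regions against 3507. Taking the top-scoring regions of each in equal numbers left 6 genes in diluent (8.70%, against 6.40% of all scored genes) and 13 in SAHA (18.8%, against 9.50%). The regions called in each library alone, without a control, numbered 844 in diluent and 784 in SAHA, and reached 2 of the genes in diluent (2.90%, against 1.02%) and 3 in SAHA (4.35%, against 1.24%).

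**Figure D3:**
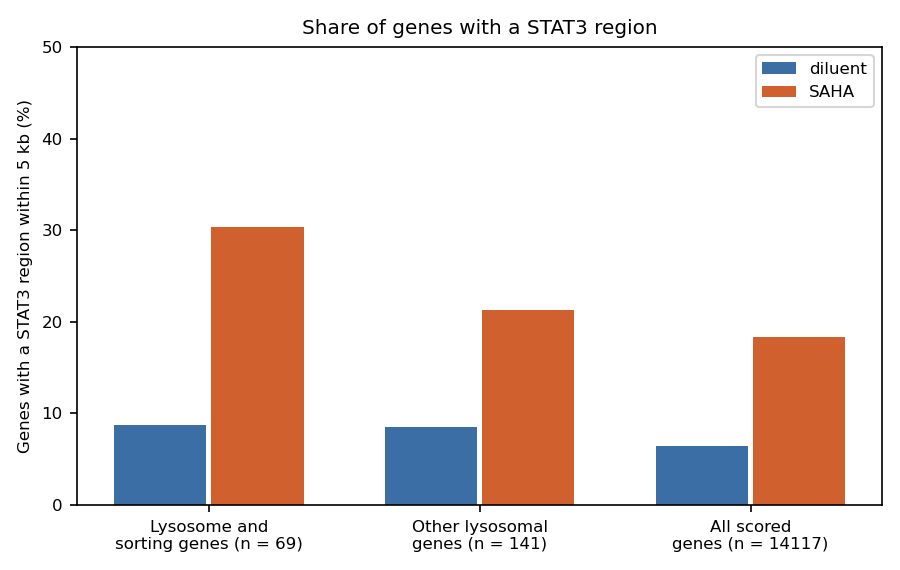
Share (%) of genes with a STAT3 region within 5 kb of a listed start, in the diluent (blue) and SAHA (orange) libraries, 1 library each. The lysosome and vacuolar sorting genes stood at 8.70% and 30.4%, the other lysosomal genes at 8.51% and 21.3%, and all scored genes at 6.40% and 18.3%.

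Few STAT3 regions coincided between the libraries. Genes with one in both libraries were Atp6v0a1, Atp6v0c and Vps37a (3 of 69, against 1.83% of all genes), and only at Atp6v0a1 and Vps37a did the regions of the conditions overlap. Another 18 genes had one in SAHA alone and 3 (Atp6v0d2, Ctse and Vps25) in diluent alone, while 45 had none. A STAT3 region covered the start itself at 12 genes in SAHA (17.4%, against 5.74%) and at 1, Atp6v0a1, in diluent (against 1.58%). Of the 27 SAHA regions near these genes, 22 lay on an H3K4me3 region of the same condition (81.5%, against 65.1% of 2593 regions near any scored gene), and of the 6 diluent regions 5 did (83.3%, against 66.5% of 852). None overlapped an IgG region.

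**Figure D4:**
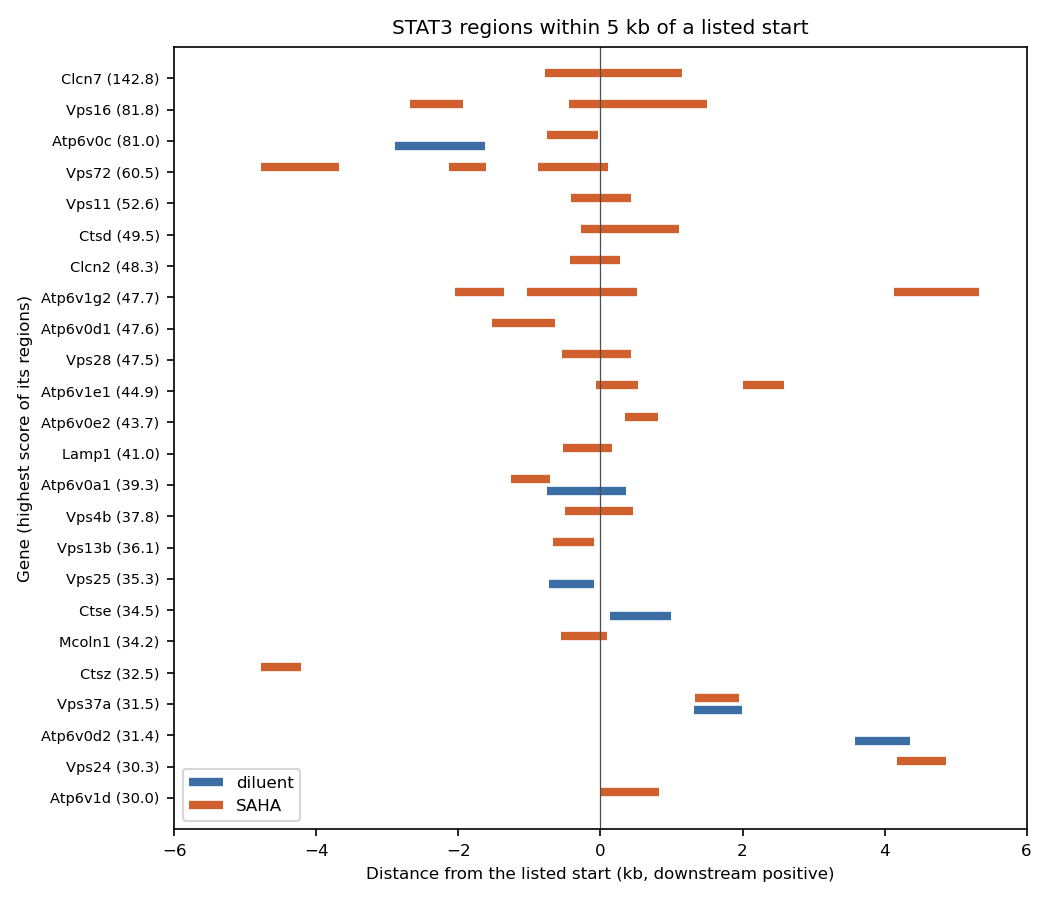
Position and extent of each STAT3 region within 5 kb of a listed start, by distance from that start (kb, downstream positive), for the 24 genes with one. Blue bars are diluent regions and orange bars SAHA regions. Genes are sorted by the highest score of their regions, in parentheses, and Clcn7, with 142.8, has a single SAHA region across its start. Scores rank regions within 1 list only, so the order between diluent and SAHA regions is for display.

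Of the SAHA regions near these genes, the highest-scoring belonged to Clcn7, whose loss causes osteopetrosis and lysosomal storage. In SAHA a STAT3 region of 1930 bp at chr17:25269562-25271491 (mm9) covered the start at 25270338, with its midpoint 188 bp downstream. Its score of 142.8 was rank 5 of 8552 in its list, whose scores ran from 30.0 to 241.53. Scores are the authors' own values and rank regions within 1 list only. It lay on an H3K4me3 region of 5224 bp. In diluent the nearest STAT3 region was 846450 bp away. The region was not in the SAHA table called without a control, so no tag count is available for it.

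Among the pump genes, Atp6v0c had the strongest diluent region within 5 kb of a start, with a score of 81.04 (rank 35 of 3507) and 1274 bp at a distance of 1622 bp upstream of the start. Its SAHA region, 36 bp upstream of the start, scored 33.02 and lay 870 bp from the diluent one, both inside the broad H3K4me3 domain. Atp6v0a1, an a subunit of V0, had scores of 39.33 in diluent and 30.05 in SAHA. Atp6v0d2 had a diluent region 3587 bp from its start, off H3K4me3, with a score of 31.36. In SAHA alone, Atp6v0d1 scored 47.61 and Atp6v1d, a rotor stalk subunit, 30.04, near the bottom of the list (rank 8516 of 8552). That region lay 8 bp from the Atp6v1d start and 441 bp from the start of Eif2s1. Atp6v1e1, a peripheral stalk subunit, had 2 regions, scoring 44.86 and 31.87. Atp6v0e2, which had no H3K4me3, had a region 348 bp from its start with a score of 43.68. Atp6v1g2, a G subunit known from brain, had 3 regions, scoring 47.73, 44.49 and 40.25. Those of 47.73 and 40.25 are listed under the neighbouring genes Nfkbil1 and Bat1a, and the start of Nfkbil1 lies in the region of 44.49, so the gene they belong to is uncertain.

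In SAHA, 2 of 10 cathepsins, 2 of 5 chloride channels and exchangers, 1 of 3 Lamp genes and 1 of 3 mucolipins had a STAT3 region within 5 kb. The share over all scored genes was 18.3%, and differences between such small groups were not tested. Ctsd, with 1379 bp across its start, scored 49.55, and Ctsz, with a region 4211 bp from its start and off H3K4me3, scored 32.54. Ctse had a diluent region only, 134 bp from its start, with a score of 34.48. Clcn2 scored 48.26, Lamp1 41.04 and Mcoln1 34.18, each across the start. Ctsb, Ctsc and Ctss had no STAT3 region within 5 kb of the start in either library. At Ctsb, however, a diluent region 5926 bp from the start, with a score of 31.52, lay inside its broad H3K4me3 domain.

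Among the sorting genes, Vps16, the shared core subunit of HOPS and CORVET, had a SAHA region of 1942 bp across its start (score 81.85, rank 83) and another 1929 bp away (score 55.83). Both are listed under Fam113a, whose own start the first covers. Vps11, another shared core subunit, scored 52.63 and was also called without a control, with 22 tags and a fold enrichment of 5.56 by the authors. Vps28 of ESCRT-I scored 47.5 and was called there as well, with 28 tags and a fold enrichment of 7.36. Vps4b, an ATPase that disassembles ESCRT-III, scored 37.81, Vps13b 36.12 and Vps24 30.31, the last 4182 bp from its start. Vps37a of ESCRT-I had regions at nearly the same place in diluent (31.47) and SAHA (30.44). Vps25 of ESCRT-II had a diluent region only, with a score of 35.33. Vps72 had 3 SAHA regions, scoring 60.52, 35.31 and 33.51, of which that of 60.52 covers the start of its neighbour Pip5k1a. No retromer, GARP, Vps45 or Lamp2 start had a STAT3 region within 5 kb. Most scored genes had none either, since 6.40% had one in diluent and 18.3% in SAHA.

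The 5 kb window set some of these counts. Just inside it were the regions of Ctsz at 4211 bp, Vps24 at 4182 bp and the farthest of Atp6v1g2 at 4140 bp. Just outside were diluent regions at Vps72 (5192 bp), Lamp2 (5355 bp) and Ctsb (5926 bp), and SAHA regions at Atp6v1g3 (5578 bp) and Atp6v1a (6381 bp). Without a distance limit, the authors' lists assign 16 diluent regions to 14 of the genes, 10 of them beyond 5 kb, and 36 SAHA regions to 31 genes, 14 of them beyond 5 kb. Among those beyond 5 kb in diluent, the highest score was 92.22 (rank 15), 48399 bp downstream of the start of Atp6v1g3. Among those in SAHA it was 43.32 (rank 1847), 17139 bp from the start of Vps37b. A diluent region 13916 bp from Atp6v0a1 scored 81.41.

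STAT3 regions and the other readouts were set side by side without a test. Genes with a SAHA STAT3 region had a median H3K4me3 tag ratio of -0.07 (17 genes) and those without one -0.02 (41 genes). Of the 9 genes with TCACGTGA in the promoter, 5 (Atp6v0d1, Clcn7, Ctsd, Mcoln1 and Vps16) had a SAHA STAT3 region and none a diluent one, while of the 42 without it 11 had a SAHA region. Over all scored genes with a promoter, 23.9% of the 209 with TCACGTGA and 18.4% of those without had a SAHA region, and 11.0% of the 209 had a diluent region. Of the 5 genes with TTCNNNGAA in the promoter, 1, Clcn7, had a SAHA region. Over all scored genes the share was 16.9% with that motif and 18.6% without.

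A list of 152 other lysosomal genes, covering hydrolases, membrane proteins, enzyme sorting, fusion and regulation, had 141 with a listed start. H3K4me3 was present at 140 in each condition, against 84.2% of all scored genes in diluent and 85.2% in SAHA. A STAT3 region lay within 5 kb of 12 in diluent (8.51%, against 6.40% of all scored genes) and of 30 in SAHA (21.3%, against 18.3%), with 2, Galns and Ist1, in both libraries. Within the SAHA list, the highest score among them was at Uvrag, an autophagy and endosome fusion protein, with 122.64. Of 129 genes with a tag ratio, 87 were below 0 (67.4%, against 58.4% of all genes with a pair), and the median was -0.07 (all genes: -0.05). In each direction, 1 gene passed a 2-fold difference (0.775%, against 2.31% of all genes upward and 0.465% downward). Napsa, an aspartic protease, was the gene that was higher in SAHA, with 504 and 1111 tags (log2 ratio 1.21, 1.05 to 1.36). Acp5, the tartrate-resistant acid phosphatase of osteoclasts and macrophages, was the gene that was lower, with 550 and 256 tags (-1.04, -1.26 to -0.82). Its region was 3838 bp wide in diluent against 1528 bp in SAHA. The ratio per kb was 0.29. Acp5 also had a STAT3 region across its start in SAHA, with a score of 70.51.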

How the data were processed

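The submitters' processing notes name BWA and the build mm9. Regions of single libraries came from MACS 1.4.0rc2 with no control library and a p-value cutoff of 1e-05, per the file headers. These deposited tables give tag counts, a fold enrichment ratio and a score. The authors' deposited lists against IgG hold a score and a gene per region. The settings behind them are not stated in the sources used here. Their H3K4me3 scores stop at 3100 and were not compared.

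A gene had a region when the region's nearest base lay within 5 kb of a start listed in the gene's rows, and 1 start of Atp6v0c listed on another chromosome was left out. Tag ratios used counts scaled to filtered tags, with exact conditional binomial 95% intervals, at regions overlapping by at least 1 bp. The interval was tested on simulated counts that held counting error only, at the same regions in both libraries. That test cannot show how the interval fares with separately called regions or with variation between replicates. With 1 library per group, no test between conditions was made. Alternatives were other windows, a stricter score, regions without a control, regions away from IgG regions, equal list lengths, other scalings and other pairings.

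The genes and lists were chosen with earlier results of these data known. Named genes were Clcn7, all with a STAT3 region within 5 kb, the 5 largest and 5 smallest tag ratios, the 5 widest and 5 narrowest regions in diluent, and those without H3K4me3. Of the other lysosomal genes, at most 4 per direction were named by the fold and STAT3 rules. Other genes were named after their values were seen, as examples of their group. The comparisons at 5 kb and 1.5 times in width, of TCACGTGA with STAT3 and of regions by width with counts were added after the values were seen. Symbols were matched to RefSeq on GRCm38.p6 for names and promoters, where 2 of the 69 have another name. Python 3.11.15, numpy 2.4.6, scipy 1.17.1 and matplotlib 3.10.9 were used.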

Additional observations from a re-analysis of the deposited data

How the results depend on the processing

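Of 49 alternatives to 9 results, 40 kept the result, where counts within a ratio of 1.5 were taken as the same. Among these 40, the 21 genes with a STAT3 region in SAHA became 14 with scores at or above the list median. The 6 in diluent became 9 with a window of 10 kb. The 22 SAHA regions on H3K4me3 became 15 with scores at or above the list median. The number of genes with a STAT3 region in diluent, 6, became 3 with a window of 1 kb, 3 with scores at or above the list median, and 2 with the regions called without a control. The number in SAHA, 21, became 13 with equal numbers of top regions and 3 without a control. The median log2 tag ratio of -0.04 became -0.16 per kb, -0.10 with raw tags and 0.01 when centred on the median of all scored genes, so the direction of so small a median depends on the scaling. The 1 gene at least 2-fold higher in SAHA became 0 per kb. The centring subtracts the median of all genes, and the table without a control holds fewer regions. The cause of the other shifts was not tested. The count of genes with H3K4me3 stayed between 60 and 66 in the alternatives run. No paired analysis was possible because each group had 1 library. Depth limits the ratios of Clcn5, Vps37d, Ctsf and Mcoln3 most, and no STAT3 tag ratio was computed, since 2 of the 27 SAHA regions and 1 of the 6 diluent regions had a count.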
